A study of Homo sapiens with 2 samples.

Results

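The genes described here are 9 chaperones and folding factors of the endoplasmic reticulum (ER) and the transcription factor XBP1, 10 genes in all, chosen by symbol: HSPA5, HSP90B1, PDIA4, PDIA6, HYOU1, SDF2L1, DNAJB9, MANF, CRELD2 and XBP1. All 10 were listed in the deposited table, which holds 10987 genes. RNA sequencing compared 2 libraries, 1 labelled as THP1 cells given bort (bortezomib, an inhibitor of the proteasome) for 24 h and 1 labelled as untreated THP1 cells. THP1 is an established human line of monocytic leukaemia that carries an MLL fusion, and the labels give no dose of bort for this culture. The values are FPKM (fragments divided by transcript length in kilobases and by the size of the library), which allow levels of different genes to be compared per length. The number of reads is unknown. Each condition has a single library, so no spread between replicates is known, no test was possible, and the differences describe these 2 libraries alone.

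The labelled cell type was checked first. Of 16 erythroid marker genes 14 were listed, with summed levels of 5074 FPKM untreated and 4440 FPKM with bort, and the most abundant of them, the fetal globin gene HBG1, was at 1487 and 1536 FPKM. Of 16 monocytic and myeloid markers 6 were listed, with sums of 24.8 and 64.4 FPKM, and LYZ, the most abundant of them in both libraries, was at 7.61 and 28.7 FPKM. CD14, CSF1R and MPO, which define the monocytic and myeloid lineage, were not among the listed genes. None of 8 plasma cell markers was listed, a comparison made because plasma cells are known for abundant ER chaperones. These levels go against a monocytic label, so the samples are called by their labels, as the library labelled bort and the library labelled untreated. The erythroid transcription factor GATA1 was at 161.3 FPKM in the untreated and 48.7 FPKM in the bort library, while RHAG, a red-cell membrane gene, was at 221.8 and 363.3 FPKM. Of the 14 erythroid markers 5 were higher and 9 lower in the bort library, 4 of them (28.6%) lower by 2-fold or more, where 50.3% of all genes were higher and 10.2% passed 2-fold downwards. Of the 6 monocytic and myeloid markers 5 were higher, 2 of them (33.3%) by 2-fold or more, against 8.08% of all genes. With the trend in GC content removed 4 were past 2-fold, against 6.92% of all genes on that scale. Of the 5, ITGAM (0.234 and 0.836 FPKM) and S100A9 (0.101 and 0.937 FPKM) reached 0.501 FPKM only in the bort library. Every listed gene reached at least that level in 1 library, so the direction of ITGAM and S100A9 was fixed by the listing. S100A9 was among the 4 past 2-fold with the GC trend removed. The part of the marker genes in the values below was not tested.

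Proteins that enter the secretory pathway are folded in the ER by chaperones of the HSP70 and HSP90 families and by enzymes that form and reshuffle disulfide bonds. When unfolded proteins build up, the sensors IRE1 (gene ERN1), ATF6 and PERK (gene EIF2AK3) start the unfolded protein response. IRE1 removes an intron from XBP1 mRNA so that the active factor is made, ATF6 is cut to release a factor that acts with NF-Y, and PERK lowers translation while allowing synthesis of ATF4. XBP1 and cleaved ATF6 are known to act on ER stress elements in promoters of chaperone genes. A gene-level FPKM does not separate spliced from unspliced XBP1 mRNA, so the splicing step was not measured here.

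Promoter sequences are shown for the ER stress elements in them. These elements were defined on promoters of ER chaperone genes, so their presence here is not independent of the choice of genes. RefSeq windows (build GRCh38.p14) from 250 bases before to 50 bases after the start were found for all 10 genes, 13 windows in all, with a pair each for PDIA4, PDIA6 and XBP1. They were searched on both strands for exact matches to the ER stress element ERSE (CCAAT and CCACG with any 9 bases between them), to ERSE-II (ATTGG and CCACG with any 1 base between them) and to the core of the unfolded protein response element, UPRE (TGACGTGG). This search was chosen after the expression values had been seen. Of 35116 promoter windows of the reference 27 held ERSE (0.0769%), 19 held ERSE-II (0.0541%) and 256 held the UPRE core (0.729%). ERSE was found in windows of 5 of the 10 genes, namely HSPA5, HSP90B1, PDIA6, CRELD2 and XBP1, and ERSE-II in those of HYOU1 and SDF2L1. The windows of PDIA4, DNAJB9 and MANF held neither. In the stretches that follow, written 5′ to 3′ on the strand of the gene with 12 bases on either side, capitals mark the match, which reads as the reverse complement of the motif where it lies on the other strand.
HSPA5, chr9:125241379-125241421, minus strand: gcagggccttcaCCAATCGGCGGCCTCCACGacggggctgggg
HSP90B1, upstream match, chr12:103930204-103930246, plus strand: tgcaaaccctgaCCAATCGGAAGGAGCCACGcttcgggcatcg
HSP90B1, downstream match, chr12:103930309-103930351, plus strand: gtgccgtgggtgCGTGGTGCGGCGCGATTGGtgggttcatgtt
PDIA6, chr2:10812841-10812883, minus strand: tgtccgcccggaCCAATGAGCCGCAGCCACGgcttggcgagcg
CRELD2, chr22:49918542-49918584, plus strand: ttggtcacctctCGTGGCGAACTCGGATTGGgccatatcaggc
XBP1, chr22:28800591-28800633, minus strand: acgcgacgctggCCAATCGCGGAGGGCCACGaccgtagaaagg
HYOU1, upstream ERSE-II, chr11:119057368-119057402, minus strand: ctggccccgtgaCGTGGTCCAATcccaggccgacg
HYOU1, downstream ERSE-II, chr11:119057262-119057296, minus strand: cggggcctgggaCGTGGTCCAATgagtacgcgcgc
SDF2L1, ERSE-II, chr22:21642102-21642136, plus strand: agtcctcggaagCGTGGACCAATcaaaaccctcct

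The upstream ERSE-II of HYOU1 overlaps the only UPRE core found in these windows. A match describes letters of the reference and does not show binding. Only exact matches were searched for, so copies of an element that differ in a base were not counted.

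The promoter windows of HSPA5 and DNAJB9 are given whole, since these genes had the largest differences of the 10. That of HSPA5 holds 1 exact match to ERSE, in capitals, and that of DNAJB9 holds no exact match to any of the motifs.
HSPA5, chr9:125241294-125241593, minus strand: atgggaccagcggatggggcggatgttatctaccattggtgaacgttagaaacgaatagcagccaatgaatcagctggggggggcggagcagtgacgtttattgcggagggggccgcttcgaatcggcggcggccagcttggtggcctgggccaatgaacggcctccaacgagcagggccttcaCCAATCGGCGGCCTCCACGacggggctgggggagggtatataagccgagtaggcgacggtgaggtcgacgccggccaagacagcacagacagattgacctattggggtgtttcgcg
DNAJB9, chr7:108569624-108569923, plus strand: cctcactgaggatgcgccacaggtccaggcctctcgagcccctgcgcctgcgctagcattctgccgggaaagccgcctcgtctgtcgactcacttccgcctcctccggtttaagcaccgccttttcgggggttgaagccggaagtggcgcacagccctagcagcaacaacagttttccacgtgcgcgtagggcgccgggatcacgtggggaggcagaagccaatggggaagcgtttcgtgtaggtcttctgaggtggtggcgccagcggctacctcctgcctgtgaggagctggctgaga

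On the log2(FPKM + 1) scale 6 of the 10 genes were higher and 4 were lower in the library labelled bort, where 50.3% of all 10987 genes were higher. A difference was called when it reached 2-fold. HSPA5 and DNAJB9 were higher by 2-fold or more, 2 of 10 genes, against 8.08% of all genes (888), and 0 of 10 were lower by 2-fold or more, against 10.2% of all genes (1125). The share of all genes higher by 2-fold or more was 14.3% with a pseudocount of 0.1 FPKM and 15.1% without one, and HSPA5 and DNAJB9 were still 2 of 10. When the 20 most abundant genes were left out of the totals used for scaling, 1116 of all genes passed 2-fold upwards and 941 downwards. The median log2 difference of the 10 genes was 0.43, and that of all genes was 0.0049. With 10 genes the counts are small, and the share of genes that were higher was near the background. The differences spread from -0.29 for PDIA6 to 2.20 for DNAJB9, so the 10 genes did not move as a block.

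**Figure D1:**
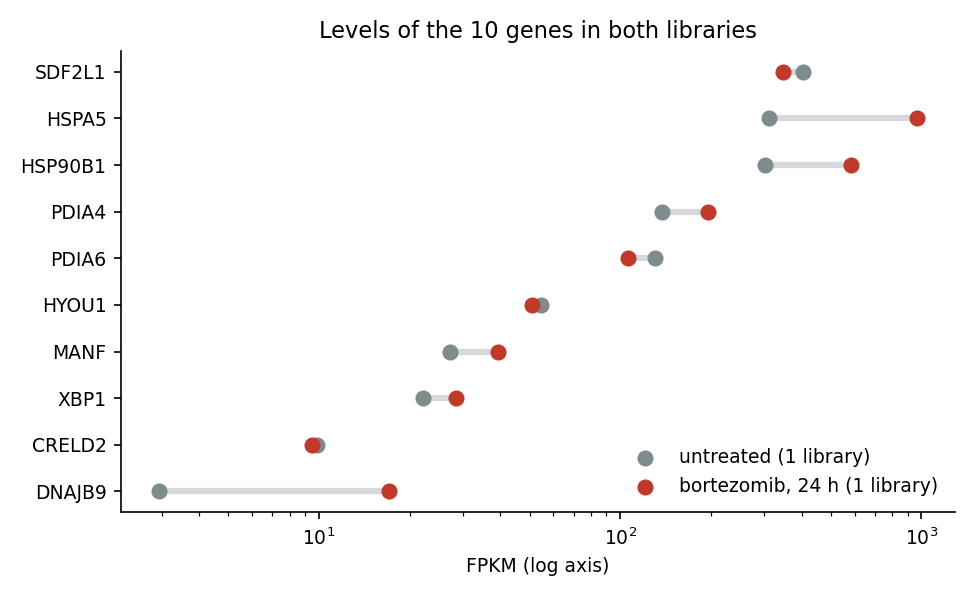
FPKM of each of the 10 genes (log axis) in the untreated library (grey) and the bort library (red), 1 library each, with the genes ordered by their untreated level. DNAJB9 lies lowest in the untreated library at 2.94 FPKM, and HSPA5 moves from 311.9 to 965.5 FPKM to become the most abundant of the 10.

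The summed level of the 10 genes was 1404 FPKM in the untreated and 2344 FPKM in the bort library, or 0.669% and 1.06% of all FPKM. HSPA5 made up 22.2% of that sum in the untreated and 41.2% in the bort library. The sum was 1.67-fold higher in the bort library with HSPA5 and 1.26-fold higher without it, so much of the added level lay in 1 gene. Levels of single genes spanned 138-fold in the untreated library, from DNAJB9 to SDF2L1, and 102-fold in the bort library, from CRELD2 to HSPA5.

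HSPA5 encodes BiP, the HSP70 chaperone of the ER lumen, which binds unfolded chains and holds the stress sensors inactive. Its level was 311.9 FPKM in the untreated and 965.5 FPKM in the bort library, a ratio of 3.10 and a log2 difference of 1.63. In order of level it was at place 67 of all genes in the untreated library and at place 18 in the bort library. No other gene of GENCODE 29 overlaps its exons.

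The partners of BiP did not follow it uniformly. DNAJB9 encodes ERdj4, a J-domain protein that stimulates the ATPase of BiP and is known to restrain IRE1. It was at 2.94 FPKM in the untreated and 17.1 FPKM in the bort library, a ratio of 5.81 and a log2 difference of 2.20, at rank 68 of 10987 genes in order of that difference. It was thus the least abundant of the 10 in the untreated library and had the largest difference of them. Exons of PNPLA8 and THAP5 overlap those of DNAJB9 on the opposite strand. The labels and the methods name different library kits, so it is uncertain whether strand was kept, and reads of such partners may not have been told apart.

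HYOU1 encodes GRP170, a large HSP70 relative that helps BiP exchange nucleotide. It was at 54.5 FPKM in the untreated and 51.0 FPKM in the bort library, a log2 difference of -0.09 that turned to the other sign with the upper quartile scaling, the scaling without the 20 most abundant genes and the removal of the GC trend. An antisense gene, AP003392.3, overlaps exons of HYOU1 on the opposite strand. The ratio of HSPA5 to HYOU1 within a library, which no scaling of the libraries can alter, was 5.72 in the untreated and 18.9 in the bort library. That 3.31-fold change was 2.55-fold on the FPKM + 1 scale with the GC trend removed. SIL1, the other nucleotide exchange factor of BiP, had a log2 difference of -0.98, which passed 2-fold with each of the other pseudocounts but was -0.61 with the GC trend removed. SIL1 also passed 2-fold when the libraries were scaled to the same total, which made the pseudocount weigh less as well. The ratio of HSPA5 to SIL1 went from 34.5 to 236.3, a 6.85-fold change that was 4.39-fold on the FPKM + 1 scale with the GC trend removed. BiP mRNA was therefore more abundant relative to both of its exchange factors in the bort library.

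SDF2L1, which forms a complex with ER J-domain proteins that keeps clients soluble, was the most abundant of the 10 in the untreated library at 405.5 FPKM. It was at 346.6 FPKM in the bort library, a log2 difference of -0.23 that became 0.42 once the trend with GC content was removed. Its transcript has the highest GC content of the 10, at 65.5%. MANF, a small ER protein that stabilises BiP bound to its clients and can be secreted, was at 27.3 FPKM in the untreated and 39.2 FPKM in the bort library. Its log2 difference of 0.51 fell short of 2-fold under each of the 9 alternatives.

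HSP90B1 encodes GRP94, the HSP90 of the ER, with a narrow set of clients that includes integrins and Toll-like receptors. It was at 302.8 FPKM in the untreated and 585.0 FPKM in the bort library, a ratio of 1.93. The log2 difference of 0.95 lay just short of 2-fold and passed it with the upper quartile scaling (1.06) and the scaling without the 20 most abundant genes (1.06). HSPA5 and HSP90B1 had near equal levels in the untreated library, with a ratio of 1.03, whereas HSPA5 was 1.65 times HSP90B1 in the bort library. That 1.60-fold change was 1.80-fold on the FPKM + 1 scale with the GC trend removed. Exons of C12orf73 and TTC41P overlap HSP90B1 on the opposite strand, and the microRNA gene MIR3652 overlaps it on the same strand.

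PDIA4 (ERp72) and PDIA6 (P5) are thioredoxin-like oxidoreductases that act on disulfide bonds, and PDIA6 is known to work with BiP. Their levels were similar in the untreated library, at 137.5 FPKM for PDIA4 and 130.0 FPKM for PDIA6. In the bort library PDIA4 was at 195.8 FPKM and PDIA6 at 106.3 FPKM, log2 differences of 0.51 and -0.29. The ratio of PDIA4 to PDIA6 was 1.06 in the untreated and 1.84 in the bort library. That 1.74-fold change was 2.13-fold on the FPKM + 1 scale with the GC trend removed. Neither gene changed sign under any of the 9 alternatives. An exact match to ERSE lies in 1 of the 2 promoter windows of PDIA6 and in none of those of PDIA4. Whether the motif bears on these differences was not tested. Exons of ATP6V1C2 overlap PDIA6 on the opposite strand.

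CRELD2, a secretory protein with disulfide isomerase activity, was at 9.85 FPKM in the untreated and 9.44 FPKM in the bort library. Its log2 difference of -0.06 was close to 0 and turned to the other sign under the same 3 alternatives as that of HYOU1. CRELD2 shares exon sequence with ALG12 on the opposite strand. XBP1 was at 22.2 FPKM in the untreated and 28.4 FPKM in the bort library, a ratio of 1.28 and a log2 difference of 0.35 at rank 3496 of 10987. The annotation names 1 pseudogene of it, XBP1P1, to which reads could also be assigned.

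Transcript GC content moved with the differences across the whole table. The Spearman correlation of GC content with the log2 difference was -0.49 across 10907 genes with a transcript in GENCODE 29, which are not independent replicates and share both libraries. The 10 genes range from 40.4% GC in DNAJB9 to 65.5% in SDF2L1. With the trend removed, DNAJB9 was at 1.83, HSPA5 at 1.53 and HSP90B1 at 0.68. On that scale 9 of the 10 genes were higher, against 50.5% of all genes, and PDIA6 was the exception at -0.40. The genes past 2-fold were again HSPA5 and DNAJB9, 2 of 10 higher against 6.92% of all genes, and 0 of 10 lower against 6.11%. The median of the 10 genes was then 0.55. The direction of HYOU1, SDF2L1 and CRELD2 thus rests on whether that trend is removed, while that of the other 7 genes does not.

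**Figure D2:**
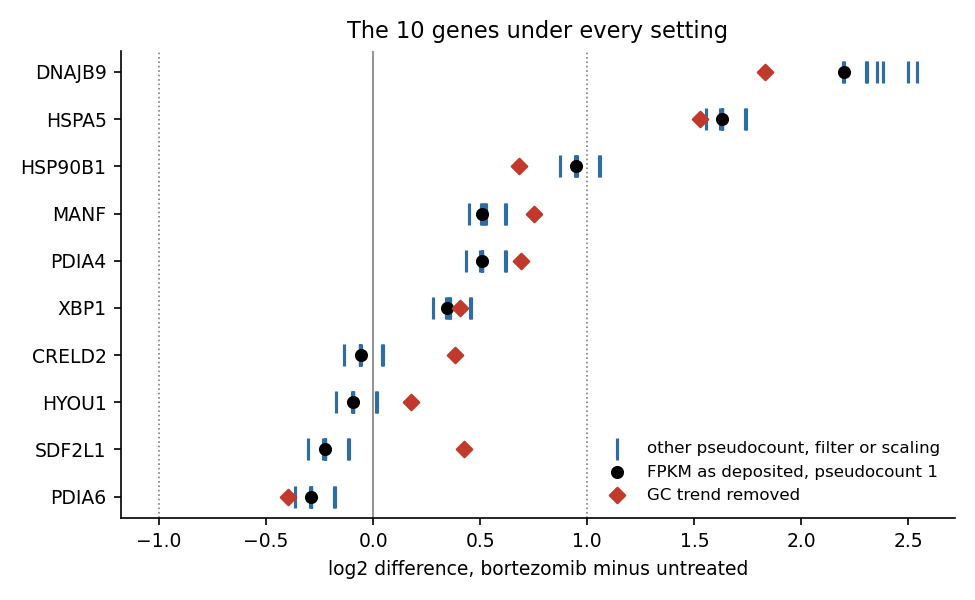
Log2 difference (bort minus untreated) of each of the 10 genes as deposited with a pseudocount of 1 FPKM (black), with the GC trend removed (red) and under the other pseudocounts, filter and scalings (blue ticks), with dotted lines at 2-fold. HYOU1 and CRELD2 cross 0 under 3 alternatives and SDF2L1 under 1, whereas DNAJB9 and HSPA5 stay past 2-fold under all 9. The filter of 1 FPKM cannot change any of the 10 genes, which lie above it in both libraries.

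Relatives in other compartments show whether a difference was shared by a chaperone family. The constitutive cytosolic HSP70, HSPA8, was at 532.6 FPKM in the untreated and 539.7 FPKM in the bort library, and the mitochondrial HSP70, HSPA9, was at 140.3 and 143.5 FPKM. Their log2 differences of 0.02 and 0.03 took the other sign when the libraries were scaled to the same total or the GC trend was removed. HSPA5 exceeded them by 1.61 and 1.59 on the log2 scale. The stress-inducible cytosolic genes HSPA1A and HSPA1B had log2 differences of 1.80 and 1.66, as large as that of HSPA5, although these near-identical copies share reads and their single values are uncertain. Among these HSP70 genes HSPA5 and the inducible cytosolic forms were therefore past 2-fold, and the constitutive cytosolic and mitochondrial forms were not. The ER relatives HYOU1 and HSPA13 were at -0.09 and 1.37, and at 0.18 and 0.73 with the GC trend removed.

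The HSP90 family was less even. HSP90AA1 was at 526.1 FPKM in the untreated and 688.1 FPKM in the bort library, and HSP90AB1 at 1542 and 1713 FPKM, log2 differences of 0.39 and 0.15. The mitochondrial form TRAP1 was at 98.7 and 26.6 FPKM, a log2 difference of -1.85, so HSP90B1 exceeded TRAP1 by 2.80. Of the cytosolic relatives of HYOU1, HSPH1 had a log2 difference of 0.93, which passed 2-fold with the upper quartile scaling and the scaling without the 20 most abundant genes, HSPA4 of -0.10, which changed sign with the upper quartile scaling and the scaling without the 20 most abundant genes, and HSPA4L of -0.11. The difference of HYOU1 minus that of HSPH1 was -1.03, which was -0.36 with the GC trend removed, and minus that of HSPA4L it was 0.02, which was 0.78 with the GC trend removed. Of the cytosolic J-domain genes, DNAJB1 was at 35.4 FPKM in the untreated and 93.1 FPKM in the bort library (log2 difference 1.37), DNAJA1 had a difference of 0.36 and DNAJA2 of -0.12.

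**Figure D3:**
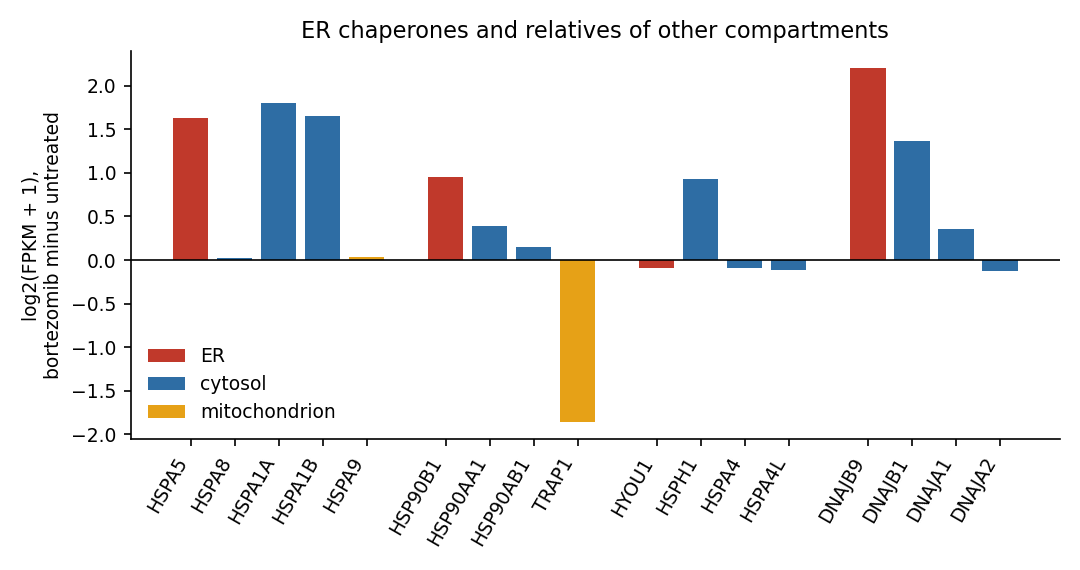
Log2 difference in FPKM + 1 (bort minus untreated) of HSPA5, HSP90B1, HYOU1 and DNAJB9 (red) and of their relatives in the cytosol (blue) and mitochondrion (yellow), 1 library per condition. HSPA5 at 1.63 stands beside HSPA1A at 1.80, while HSPA8 and HSPA9 lie near 0 and TRAP1 is at -1.85.

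Close relatives within the ER were compared in the same way. The ER J-domain gene DNAJB11 had a log2 difference of 0.92, and DNAJC3 was at 6.56 FPKM in the untreated and 16.4 FPKM in the bort library, a ratio of 2.50, both short of DNAJB9. DNAJB11 passed 2-fold with the upper quartile scaling and the scaling without the 20 most abundant genes, and DNAJC3 fell short of it with the GC trend removed. SDF2, the housekeeping relative of SDF2L1, was at 7.10 FPKM in the untreated and 8.23 FPKM in the bort library, far below SDF2L1. CRELD1 had a log2 difference of 0.68 against -0.06 for CRELD2. CDNF, the relative of MANF, was at 0.969 and 1.99 FPKM, and its log2 difference of 0.60 passed 2-fold without a pseudocount. The oxidoreductases P4HB and PDIA3, which are the classical protein disulfide isomerase and its glycoprotein-specific relative, had log2 differences of 0.07 and 0.36, the first of which changed sign when the libraries were scaled to the same total.

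A further 5 lists of related genes were counted. Of all genes 50.3% were higher, 8.08% passed 2-fold upwards and 10.2% downwards, and with the GC trend removed 6.92% passed it upwards and 6.11% downwards. Of 47 other ER chaperones and folding enzymes 46 were listed, of which 26 were higher and 20 lower in the bort library, 5 passed 2-fold upwards (10.9%) and 2 downwards (4.35%), and the median log2 difference was 0.11. With the GC trend removed 3 passed 2-fold upwards and 0 downwards, as HSPA13, TMX3 and DNAJC3 no longer did and CNPY4 (0.98 as deposited) did. TXNDC5 (1.92), a thioredoxin-domain protein, ERO1B (1.82), an oxidase that recharges disulfide isomerases, and HSPA13 (1.37), an HSP70 relative, had the highest values. That of TXNDC5 is uncertain, since its exons are shared with the readthrough gene BLOC1S5-TXNDC5, listed at 69.9 FPKM in the untreated library and at 0 in the other. TXNDC5 itself was at 10.2 FPKM untreated and 41.4 FPKM with bort, and the sum of both genes was 80.1 and 41.4 FPKM, which is lower in the bort library. CNPY2 (-1.11), PRDX4 (-1.01), the peroxiredoxin of the ER, and SIL1 (-0.98) were the lowest, and CNPY2 and PRDX4 did not reach 2-fold with the GC trend removed, nor did PRDX4 with the upper quartile scaling and the scaling without the 20 most abundant genes. CNPY2 also shares exon sequence with PAN2 and AC073896.1 on its strand.

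Genes of the 3 sensors and of the transcription factors had a median of 0.32, with 17 of 19 genes listed, 13 higher, 2 higher by 2-fold or more (11.8%) and 1 lower by 2-fold or more (5.88%). EIF2AK3 had a log2 difference of 1.13, which fell short of 2-fold with the GC trend removed, ERN1 of 0.31 and ATF6 of 0.24, the last of which changed sign with the GC trend removed. Thus of the sensors only the gene of PERK was past 2-fold as deposited. CREB3L2 (1.03) and CREB3 (0.98), relatives of ATF6 anchored in the ER membrane, came next, with CREB3 past 2-fold under 6 of the 9 alternatives, and TRAF2 (-1.25), an adaptor of IRE1, RTCB (-0.40), the ligase that joins spliced XBP1 mRNA, and ATF6B (-0.29) were the lowest. The sign of ATF6B changed with the GC trend removed, and TRAF2 was then short of 2-fold.

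Lists of the PERK arm, of ER-associated degradation and of translocation had somewhat higher medians than the 10 genes on the deposited scale, but with the GC trend removed the translocation genes were at 0.30, below the 0.55 of the 10 genes. In the PERK and ATF4 arm all 11 listed genes of 13 were higher, 4 of them by 2-fold or more (36.4%), with a median of 0.84. With the GC trend removed 7 passed 2-fold, against 6.92% of all genes, and the median was 1.26. DDIT3, which encodes the factor CHOP, had a log2 difference of 3.43, DDIT4 of 2.72 and ATF3 of 1.88, whereas ATF4 itself had 0.32. CHAC1 (0.17), PPP1R15B (0.30) and ATF4 were the lowest of them. Genes of ER-associated degradation, which returns misfolded proteins to the cytosol for the proteasome, had a median of 0.61, with 18 of 20 higher and 6 higher by 2-fold or more (30.0%). With the GC trend removed the median was 0.65 and 4 passed 2-fold, without SEL1L and DERL2. HERPUD1, a scaffold of that machinery, was at 4.28 FPKM in the untreated and 30.0 FPKM in the bort library (log2 difference 2.56), followed by EDEM1 (1.89) and UBXN4 (1.70). AUP1 (-0.31) and EDEM2 (-0.30) were lower, OS9 (0.08) came next, and AUP1 changed sign with the GC trend removed. Genes of translocation into the ER had a median of 0.50, with 15 of 18 higher and 3 by 2-fold or more (16.7%), led by TRAM1 (1.78), SEC11C (1.36) and SEC62 (1.09). With the GC trend removed TRAM1 alone of these passed 2-fold, with SEC11C at 0.98 and SEC62 at 0.53. SRPRA (-0.47), SEC61A1 (-0.20) and SSR4 (-0.13) were lower, and SEC61A1 and SSR4 changed sign with the GC trend removed.

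**Figure D4:**
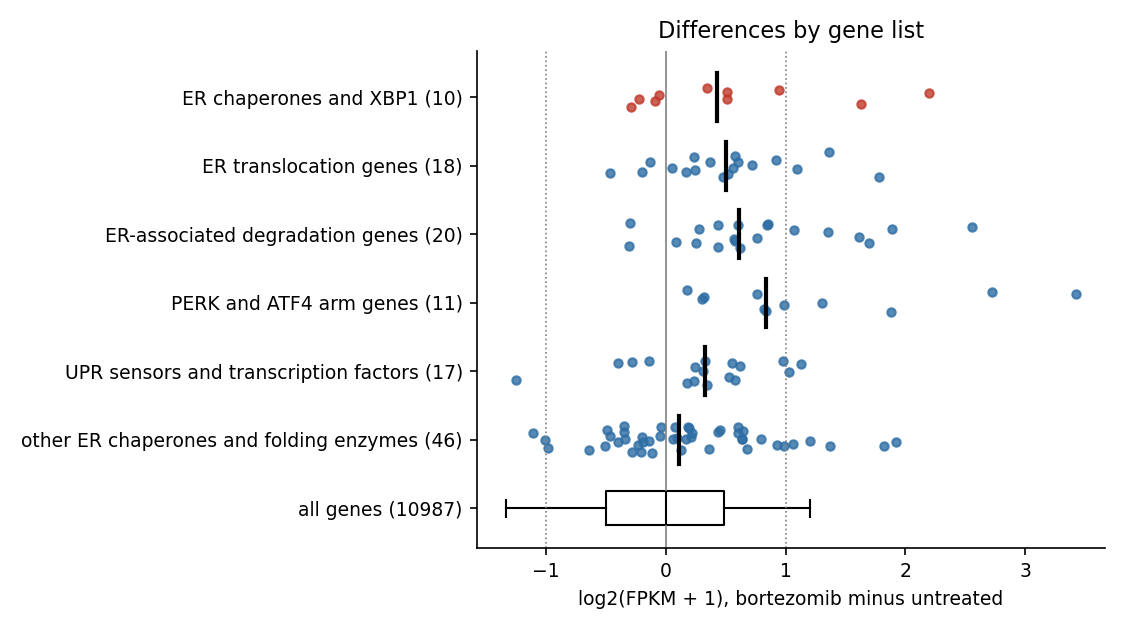
Log2 difference in FPKM + 1 (bort minus untreated) of the 10 genes (red) and of 5 lists of related genes (blue), with black bars at each median and dotted lines at 2-fold. The box gives all 10987 genes (quartiles, with whiskers to the outer 5% on either side), and medians run from 0.11 for the other ER chaperones to 0.84 for the PERK and ATF4 arm.

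The promoter motifs were set beside the values of all listed genes that hold them, where 50.3% of all genes were higher, 8.08% higher by 2-fold or more and 10.2% lower by 2-fold or more. ERSE was present in windows of 15 listed genes, of which 11 were higher in the bort library, 2 passed 2-fold upwards and 0 downwards, with a median log2 difference of 0.39. Of the 10 that are not among the genes described here, 8 were higher, with a median of 0.40, and they include CALR (0.64), a lectin chaperone, and ERO1B. Those lower were CANX (-0.04) and SERP1 (-0.10), at -0.35 and -0.34 with the GC trend removed. CANX changed sign with the upper quartile scaling and the scaling without the 20 most abundant genes. ERSE-II was present in windows of 12 listed genes, of which 5 were higher, 1 passed 2-fold upwards and 1 downwards, with a median of -0.10 that turned to 0.30 with the GC trend removed. HERPUD1, at 2.56, RUVBL2, at -1.34, and HYOU1 and SDF2L1, at -0.09 and -0.23, share that element. With the GC trend removed RUVBL2 was at -0.92, short of 2-fold, and HYOU1 and SDF2L1 were at 0.18 and 0.42. The UPRE core was present in windows of 105 listed genes, of which 63 were higher, 11 passed 2-fold upwards and 3 downwards, with a median of 0.22. These counts were chosen after the values were seen, and nothing follows from them about the factors that bind these elements.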

How the data were processed

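The authors mapped trimmed reads with HISAT2 and quantified transcripts with StringTie, and the table they deposited gives FPKM for each gene. The submitters' processing notes give build GRCh37. The labels name a TruSeq kit and the methods a stranded KAPA kit. Every listed gene reached at least 0.501 FPKM in 1 library. Depth is unknown, since too few genes with a single transcript lay below 0.2 FPKM (15 untreated, 20 bort) to recover the value of 1 read.

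Differences were taken as log2(FPKM + 1), bort minus untreated, which understates changes of low genes, and called at 2-fold. There is 1 library per group and no test. The 10 genes and the lists were chosen with earlier results of these data known. Genes named are the 10, the relatives in 22 pairs, the 3 highest and 3 lowest of each of 5 lists with 1 FPKM or more in a library, and the sensors, ATF4 and DDIT3. The marker genes lie outside that rule. So do CALR, CANX, SERP1, RUVBL2, TMX3, CNPY4, SEL1L, DERL2 and overlapping genes, which were chosen after their values were seen. Transcript GC content came from GENCODE 29 for 10907 genes (99.3%), and its trend was removed by lowess (span 0.3). Promoters came from RefSeq, matched by symbol. Alternatives were 4 scalings, a filter of 1 FPKM in both libraries, no pseudocount, pseudocounts of 0.1 and 0.5 FPKM, GC trend removal and thresholds of 1.5-fold and 4-fold. As no replicate spread exists, a value counted as moved when it shifted by more than 1.5-fold. Scripts used Python 3.11.15, numpy 2.4.6, pandas 2.3.3, statsmodels 0.14.6 and scipy 1.17.1, and were tested on simulated data.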

Additional observations from a re-analysis of the deposited data

How the results depend on the processing

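No paired analysis was possible because only 1 library stands for each condition, and none could be left out. Of 107 recomputed counts, shares and medians 96 kept to within 1.5-fold and their side of 2-fold. At a threshold of 4-fold 1 of the 10 genes was higher and 0 were lower, and at 1.5-fold 3 were higher and 0 lower. The share of all genes higher by 2-fold was 14.3% with a pseudocount of 0.1 FPKM and 15.1% without one, and the share lower was 15.6% without a pseudocount and 6.11% with the GC trend removed. At the same total 15.8% were lower, but the pseudocount also weighed less there, so that share does not isolate the scaling. At 1.5-fold, a threshold applied to all genes after the data had been seen, 20.8% lay above and 21.6% below, and for 4-fold these shares were 0.837% and 1.23%. The median of the PERK and ATF4 arm was 1.26 with the GC trend removed.

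Of 90 recomputed differences of single genes among the 10, 7 changed sign, and none of these belonged to a gene past 2-fold. The filter of 1 FPKM could change none of the 90, since all 10 genes lay above it in both libraries. Of 197 recomputed differences between relatives 185 kept their side of 2-fold and shifted by less than 1.5-fold. A scaling of the libraries acts on both relatives alike, apart from the pseudocount, and the filter of 1 FPKM leaves a pair it keeps unchanged. Many of these differences could therefore hardly move. With the GC trend removed 2 of the 197 changed sign, MANF minus CDNF (-0.09 to 0.39) and SDF2L1 minus SDF2 (-0.41 to 0.22). With the GC trend removed, HYOU1 minus HSPH1 was -0.36, HYOU1 minus HSPA4L 0.78, DNAJB9 minus DNAJB11 0.87 and DNAJB9 minus DNAJC3 1.03. DNAJB9 minus DNAJB1, at 0.83 as deposited and 0.27 with the GC trend removed, was 1.11 with a pseudocount of 0.1 FPKM and 1.14 without one. That difference was 1.07 at the same total, where the pseudocount also weighed less, and 0.82 with the upper quartile scaling. DNAJB9 minus DNAJC3 was 1.19 and 1.10 with pseudocounts of 0.1 and 0.5 FPKM and 1.22 without one. At the same total, again with a lighter pseudocount, it was 1.16, against 0.998 both as deposited and with the upper quartile scaling. The cause of these shifts was not tested. The unknown depth limits the lowest genes most, such as CDNF and CHAC1.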
